A study of Mus musculus with 12 samples.

Results

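This account covers 10 imprinted genes linked to growth, measured in mouse embryonic fibroblasts, the primary connective-tissue cells grown out of whole embryos. They are H19, Meg3, Grb10, Plagl1, Peg3, Mest, Dlk1, Ndn, Nnat and Peg10, chosen by name with earlier results of these data known. Counts of members beside the share of all genes are therefore descriptions only. All probes of these genes were taken through the RefSeq symbol of the probe's annotated accession. The members make up 10 of 21367 genes with a symbol on the array, and 21 of 39429 probes. All 21 probes were well above background on all 12 arrays, so all 10 genes passed the filter on dim signals in every group. None of the 21 was saturated.

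The cultures were labelled Itpr2 knock-out (KO) or wild type (WT), and were grown for 5 passages (late) or 3 passages (early) from E12.5 embryos. Itpr2 encodes the type 2 receptor for inositol trisphosphate, a calcium release channel. The 4 groups were KO late, WT late, KO early and WT early, with 3 arrays each. The design text gives 3 independent animals per genotype. The kind of allele, the strain and whether one culture served both passages are not given in the sources used here, and no treatment or transgene is named for any group.

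An imprinted gene is transcribed mainly from the copy inherited from one parent, under marks of DNA methylation laid down in the germ line. Many of these genes promote or restrain growth of the mouse embryo and placenta, and many are transcribed strongly in embryonic connective tissue and turned down after birth. The paternally expressed members here are, as background, Plagl1, Peg3, Mest, Dlk1, Ndn, Nnat and Peg10, and the maternally expressed ones are H19, Meg3 and Grb10. The arrays measured RNA from both copies together, so which copy was used is not part of these data, and DNA methylation was not measured.

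For members whose signal changed, the promoter sequence is shown where the 250 bases before the annotated start overlap no annotated gene, which holds for Plagl1, Meg3 and the upstream start of Mest. They come from RefSeq on build GRCm38.p6, are written 5′ to 3′ along the gene, and lie at chr10:13090582-13090831 (plus strand), chr12:109540746-109540995 (plus strand) and chr6:30733256-30733505 (plus strand). Capitals mark CG, the pair of bases that carries DNA methylation.
Plagl1: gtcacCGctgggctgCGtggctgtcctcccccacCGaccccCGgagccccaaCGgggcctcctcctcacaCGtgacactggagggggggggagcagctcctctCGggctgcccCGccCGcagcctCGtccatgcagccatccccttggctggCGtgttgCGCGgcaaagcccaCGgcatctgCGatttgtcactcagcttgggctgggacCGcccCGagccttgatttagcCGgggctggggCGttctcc
Meg3: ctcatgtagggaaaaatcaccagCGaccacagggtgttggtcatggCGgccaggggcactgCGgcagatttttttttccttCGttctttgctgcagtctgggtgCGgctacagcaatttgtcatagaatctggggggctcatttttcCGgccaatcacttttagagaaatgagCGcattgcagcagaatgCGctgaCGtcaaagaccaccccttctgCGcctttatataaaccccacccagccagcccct
Mest: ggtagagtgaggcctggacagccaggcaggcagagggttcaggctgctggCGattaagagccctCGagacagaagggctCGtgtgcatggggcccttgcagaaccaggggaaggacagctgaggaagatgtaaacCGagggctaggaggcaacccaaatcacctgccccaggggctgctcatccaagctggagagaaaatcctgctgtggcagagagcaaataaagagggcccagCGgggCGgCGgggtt

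The shown bases hold 19 CG in Plagl1, 10 in Meg3 and 7 in Mest. Over the whole window of 300 bases the counts were 26, 13 and 8, where the median of 32851 promoter windows in the table was 7. At least as many CG were found in 16.9% of all windows for Plagl1, in 37.9% for the shown start of Meg3 and in 48.65% for the upstream start of Mest. Windows at the other annotated starts of Mest, not shown, held 17 CG (at least as many in 31.4% of windows). The other Meg3 window held 1 (94.57%). The letters GGGGCCCC, a sequence that the Plagl1 protein is known to bind and that reads the same on both strands, stood in 1 of the 12 windows of 8 members, that of Peg3, and in 1.08% of all windows. This is a match of letters and says nothing of binding.

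The checks of the series as a whole touch every result here. The 75th percentile of the intensity, which sets the scale of each array, lay between 568.9 and 902.5, and 59.1% to 67.5% of the probes were well above background. All levels are log2 of the signal relative to that percentile, and levels are compared only within a probe. The Itpr2 probe read 1.72 to 1.83 in KO late, 1.53 to 1.74 in WT late, 1.12 to 1.58 in KO early and 0.66 to 1.23 in WT early arrays. It was not lower in KO, its place relative to the deleted part is not given, and it therefore checks nothing about the genotype. Xist, the non-coding RNA that coats the silenced X chromosome of female cells, rose above background on KO late replicates 1 and 2, WT late replicate 1 and WT early replicate 1, and on none of the KO early arrays. KO late replicates 1 and 2 thus differ in Xist from all 3 KO early arrays. They cannot be taken as later passages of the KO early cultures.

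Of 15 fibroblast markers, all tested, 15 were above background on all 3 arrays of the KO late, WT late and KO early groups and 14 on all 3 WT early arrays, with the mean of the list between 3.88 and 4.07 in KO late, 3.64 and 3.97 in WT late, 4.35 and 4.50 in KO early and 4.23 and 4.54 in WT early arrays. Chondrocyte markers, 11 of 12 tested, averaged -1.04 to -0.79 in KO late, -3.03 to -2.51 in WT late, -2.81 to -1.50 in KO early and -2.72 to -1.35 in WT early arrays. Macrophage markers, 12 of 12 tested, averaged 0.60 to 1.62 in KO late, 1.76 to 2.54 in WT late, 1.20 to 1.52 in KO early and 0.81 to 2.16 in WT early arrays. In bulk RNA, fewer cells of a type and less RNA per cell cannot be told apart.

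**Figure D1:**
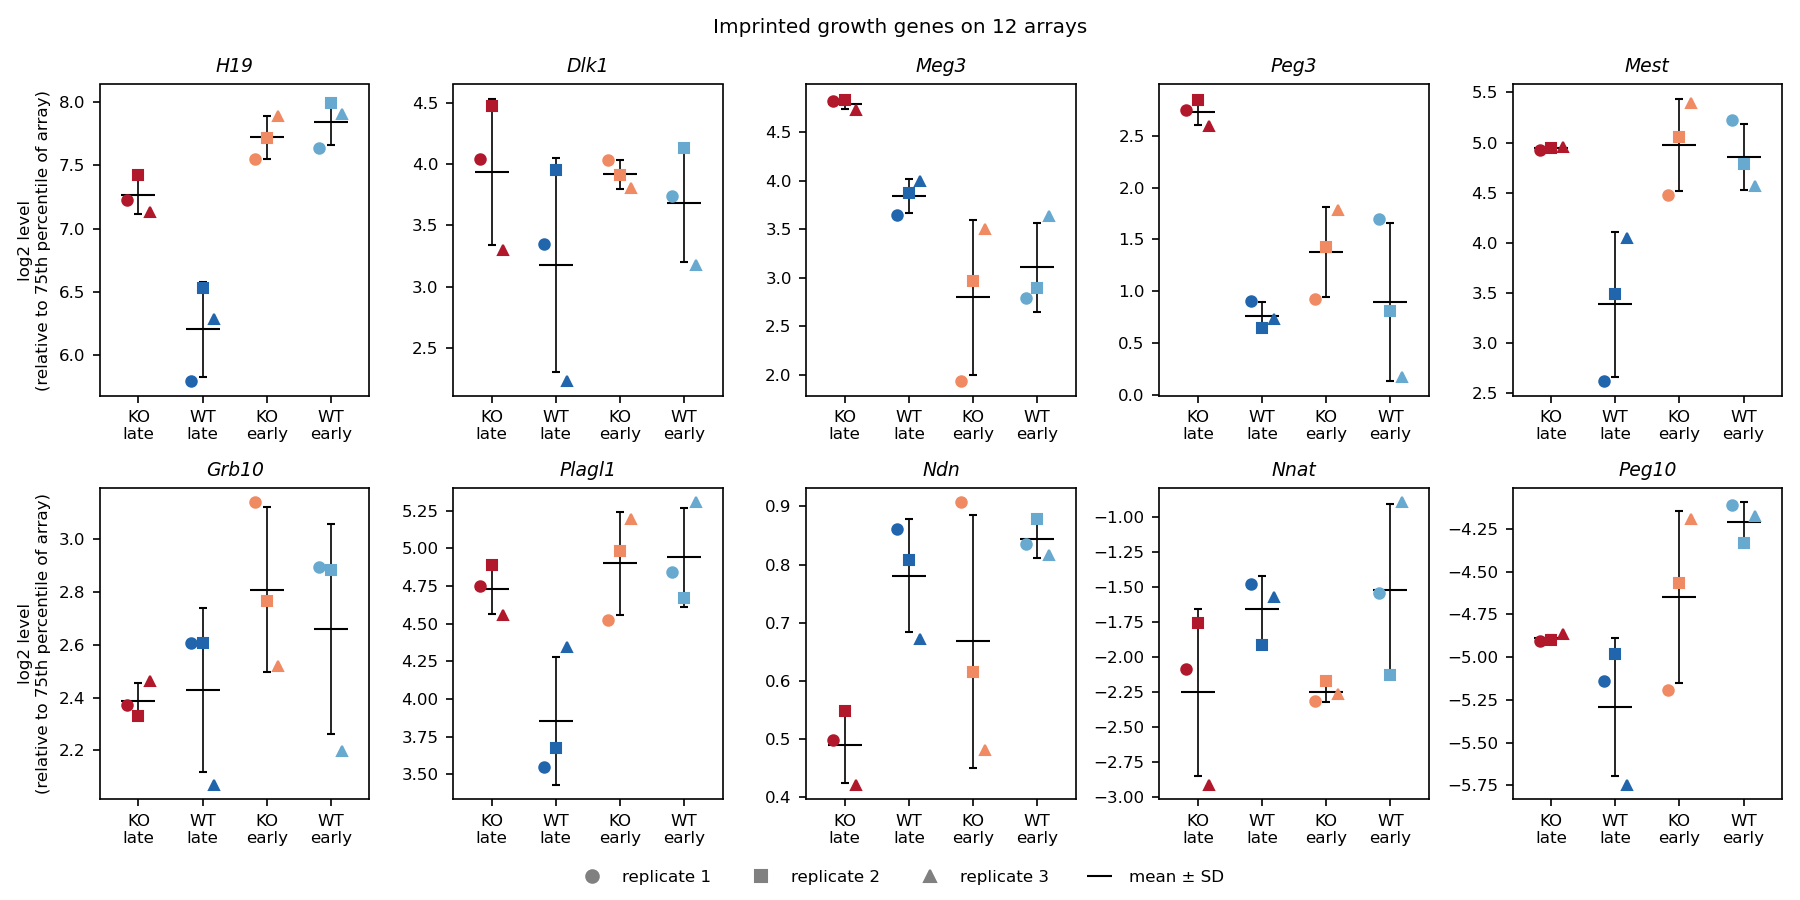
Log2 level relative to the array's 75th percentile for the probe that stands for each of the 10 genes, with 1 point per array, symbols for replicate numbers, and bars for the mean ± SD of 3 arrays; the vertical scale differs between genes. Peg3 lay at 2.60 or above in the 3 KO late arrays and at 0.91 or below in the 3 WT late arrays, while H19 and Mest were low in the WT late arrays.

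KO against WT at late passage asked how the cultures differ by genotype after longer growth. Peg3, Mest and H19 were 3.93-fold, 2.95-fold and 2.09-fold higher in KO late arrays. A gene was called changed at an adjusted p under 0.05 from limma, a linear model fitted to all 12 arrays, with adjustment over 19507 genes. By that rule 3 of 10 members were called higher, where 3.46% of all genes tested were. None was called lower, where 4.37% of all genes were, and 7.83% were called in either direction. At an unadjusted p under 0.05 there were 6 members, where 24.9% of all genes passed. The KO late and WT late values did not overlap for 7 of the 10, where this held for 39.3% of all genes. The median difference of the 10 was 0.82 on the log2 scale, against -0.01 over all genes.

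Peg3, a zinc finger protein made from the paternal copy and known for effects on growth and maternal behaviour in mice, had levels of 2.75, 2.85 and 2.60 in KO late arrays, against 0.91, 0.64 and 0.73 in WT late arrays. Every KO late array was above every WT late array by more than 1.6. The log2 difference was 1.97 ± 0.33 (SE, n = 3 arrays per group, limma adjusted p = 0.0099). Its dimmer second probe gave 1.84 ± 0.33 (adjusted p = 0.013 over all probes). Each slide of the array carried 1 array of each group, and the difference was 1.85, 2.20 and 1.87 on slides 1, 2 and 3.

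Mest, a membrane protein of the endoplasmic reticulum with a hydrolase fold, had levels of 4.93, 4.95 and 4.96 in KO late arrays, against 2.62, 3.49 and 4.05 in WT late arrays. The KO late values were nearly equal, and the WT late values were lower and spread over more than 1 log2 unit. The log2 difference was 1.56 ± 0.34 (SE, n = 3 per group, limma adjusted p = 0.024). The other 2 probes gave 1.46 and 1.52, and the slides gave 2.31, 1.45 and 0.91. The Mest call was lost when any 1 of the KO late arrays was left out, with adjusted p = 0.086, 0.074 and 0.073 without replicate 1, 2 and 3, and the difference then stayed between 1.55 and 1.57. It was also lost without the filter on dim signals (adjusted p = 0.058).

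H19, a long non-coding RNA made from the maternal copy and abundant in the embryo, has 1 probe on this array. It read 7.23, 7.43 and 7.13 in KO late arrays, against 5.79, 6.53 and 6.28 in WT late arrays. All KO late values lay above all WT late values. The log2 difference was 1.06 ± 0.18 (SE, n = 3 per group, limma adjusted p = 0.011), and the slides gave 1.44, 0.90 and 0.85. Without KO late replicate 1 or 2 the adjusted p became 0.051 in either case, with differences of 1.08 and 0.98.

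Plagl1, a zinc finger transcription factor made from the paternal copy that is known to activate other imprinted genes in mice, missed the threshold at late passage. Its levels were 4.75, 4.89 and 4.56 in KO late arrays, against 3.55, 3.68 and 4.34 in WT late arrays. The groups did not overlap, and WT late replicate 3 came closest to the KO late arrays. The log2 difference was 0.88 ± 0.25 (SE, n = 3 per group, limma adjusted p = 0.056), and it passed under 7 alternatives, 1 of them the replicate number as a block, which was not taken to pair these groups. Of its 4 probes, 2 bright ones gave 0.88 and 0.84, and 2 dim ones gave 0.40 and 0.14.

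Meg3 and Dlk1, neighbours on chromosome 12 that are made from opposite parental copies, were not called at late passage. Meg3, a long non-coding RNA, read 4.82, 4.83 and 4.73 in KO late arrays, against 3.65, 3.87 and 4.00 in WT late arrays. These groups did not overlap, and the log2 difference was 0.95 ± 0.34 (SE, n = 3 per group, limma adjusted p = 0.12). It was called in a fit of the late arrays alone (adjusted p = 0.011) and without KO early replicate 1 (adjusted p = 0.033), with the same difference. Its dimmer probes gave 0.99 ± 0.41 and 0.37 ± 0.35 (adjusted p = 0.17 and 0.56 over all probes). Dlk1, a membrane protein related to Notch ligands that restrains fat cell formation, read 4.04, 4.47 and 3.30 in KO late arrays, against 3.35, 3.95 and 2.23 in WT late arrays. Its groups overlapped, with replicate 3 lowest in both, and its log2 difference was 0.76 ± 0.43 (adjusted p = 0.31).

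The remaining 4 members were not called in this comparison. Grb10, an adaptor that dampens signalling by insulin and insulin-like growth factor receptors, read 2.37, 2.33 and 2.46 in KO late arrays, against 2.61, 2.61 and 2.07 in WT late arrays, a log2 difference of -0.04 ± 0.22 (limma adjusted p = 0.94). Peg10, which derives from a retrotransposon and is needed for the mouse placenta, read -4.90, -4.90 and -4.86 in KO late arrays, against -5.14, -4.98 and -5.75 in WT late arrays, a difference of 0.40 ± 0.24 (adjusted p = 0.35). Its groups did not overlap, although the margin to the nearest WT late array was small. Ndn, a protein of the MAGE family known for restraining growth of nerve cells, read 0.50, 0.55 and 0.42 in KO late arrays, against 0.86, 0.81 and 0.67 in WT late arrays. The difference was -0.29 ± 0.11 (adjusted p = 0.13), without overlap. Nnat, a small membrane protein of the endoplasmic reticulum, read -2.09, -1.76 and -2.92 in KO late arrays, against -1.48, -1.92 and -1.57 in WT late arrays, a difference of -0.60 ± 0.33 (adjusted p = 0.29).

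Chondrocyte markers moved with these differences: 11 of the 11 tested had a positive KO late minus WT late difference and 5 were called higher, while 11 of 12 macrophage markers had a negative one and 2 were called lower. Matn1, a cartilage matrix protein among the chondrocyte markers, was above background on 0 KO late arrays. Fibroblast markers were called higher for 3 and lower for 2 of 15. The part of these cell types in the Peg3, Mest and H19 differences was not tested.

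Xist was above background on 1 WT late array and on 2 of the KO late arrays, so its presence differed within and between these groups. Without these 2 arrays, a choice made after seeing the data, 1 KO late array remained, whose spread is assumed equal to that elsewhere, and 0 of 10 members were called by limma, with differences of 1.84 for Peg3 (adjusted p = 0.24), 1.57 for Mest (adjusted p = 0.31) and 0.93 for H19 (adjusted p = 0.26). Without all 4 arrays that carry Xist, also chosen afterwards, 0 of 10 were called again, with 1.91 for Peg3 (adjusted p = 0.074), 1.19 for Mest (adjusted p = 0.28) and 0.73 for H19 (adjusted p = 0.19). With the Xist level as a covariate, all 12 arrays kept, the 3 calls stood.

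**Figure D2:**
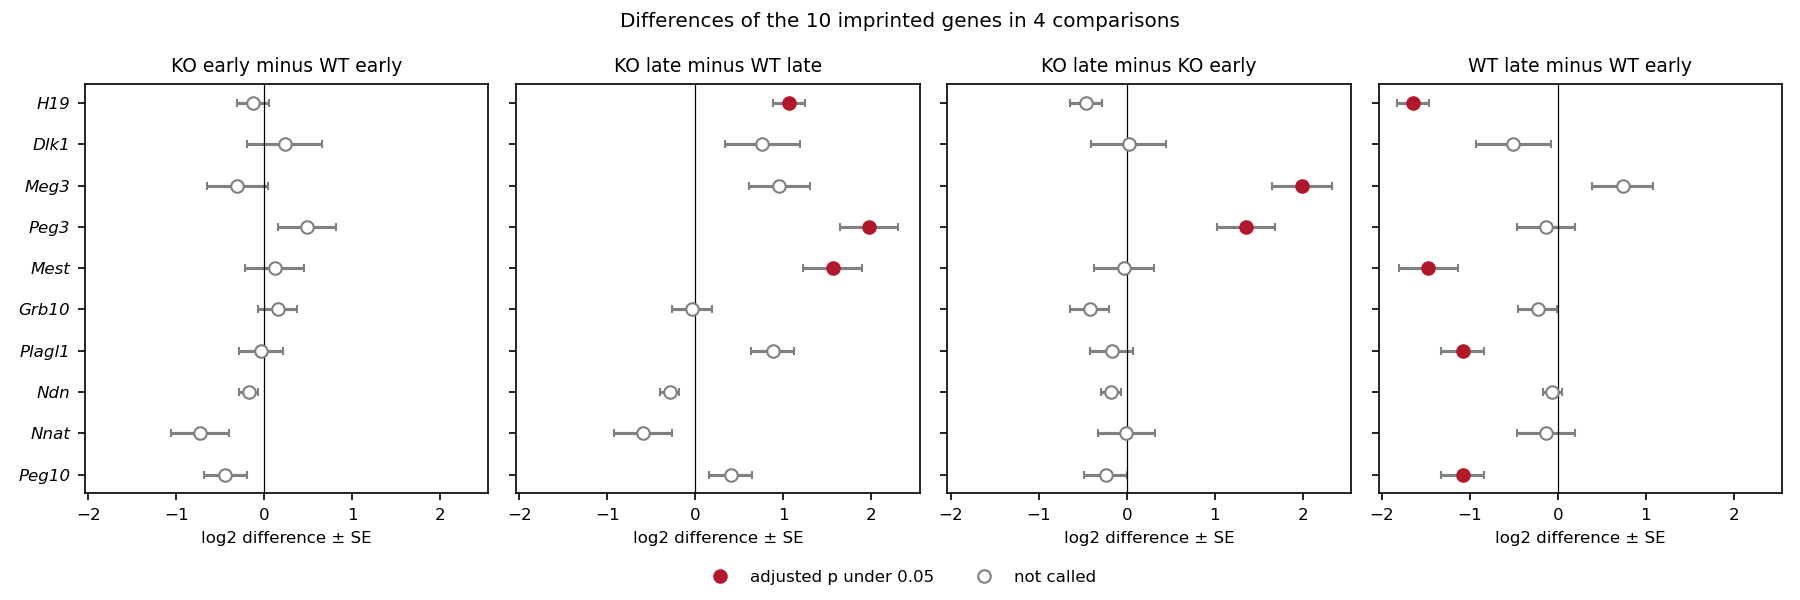
Log2 difference ± SE of the 10 genes in KO early minus WT early, KO late minus WT late, KO late minus KO early and WT late minus WT early, each from 3 arrays per group, with filled points for an adjusted p under 0.05. The SE comes from the spread pooled over all 4 groups. The filled points are 0, 3, 2 and 4 in these comparisons, all to the right of 0 in the KO late minus WT late and KO late minus KO early panels and all to the left in the WT late minus WT early panel.

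KO against WT at early passage asked whether the genotypes differed in younger cultures. None of the 10 members was called by limma, where 0.0359% of all genes were (0.0256% higher and 0.0103% lower), and 0 had an unadjusted p under 0.05, where 5.99% of all genes did. Nnat alone did not overlap, where 9.54% of all genes did not. It read -2.32, -2.18 and -2.26 in KO early arrays, against -1.55, -2.13 and -0.90 in WT early arrays, which is -0.73 ± 0.33 on the log2 scale (SE, 3 arrays per group, adjusted p = 0.74).

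The 3 genes called between KO late and WT late arrays were not called between KO early and WT early arrays. H19 read 7.55, 7.72 and 7.89 in KO early arrays, against 7.64, 7.99 and 7.91 in WT early arrays, a log2 difference of -0.12 ± 0.18 (limma adjusted p = 0.87). Mest read 4.48, 5.06 and 5.39 in KO early arrays, against 5.22, 4.78 and 4.57 in WT early arrays, a difference of 0.12 ± 0.34 (adjusted p = 0.94). Peg3 read 0.92, 1.43 and 1.78 in KO early arrays, against 1.70, 0.81 and 0.17 in WT early arrays, a difference of 0.48 ± 0.33 (adjusted p = 0.75). All 3 genes had overlapping groups. For Mest and Peg3, the KO early minus WT early difference was negative on slide 1 and positive on slides 2 and 3, with -0.78, 0.61 and 1.61 for Peg3. The other differences ran from -0.44 for Peg10 to 0.23 for Dlk1, with adjusted p from 0.74 to 0.97. The second probes of Peg10 and Dlk1 had the opposite sign, at 0.20 and -0.025.

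WT late against WT early arrays asked what longer culture does in the wild type. H19, Mest, Plagl1 and Peg10 were 3.13-fold, 2.78-fold, 2.12-fold and 2.12-fold lower in WT late arrays, and no member was called higher. Thus 4 of 10 members were called lower, where 4.37% of all genes were, and 0 higher, where 6.22% were, with 10.6% called in either direction. At an unadjusted p under 0.05 the same number, 4, passed, where 28.4% of all genes did. The groups did not overlap for 5 of 10 members, where this held for 27.7% of all genes. The median difference of the 10 was -0.37, against -0.004 over all genes.

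H19 read 5.79, 6.53 and 6.28 in WT late arrays, against 7.64, 7.99 and 7.91 in WT early arrays. Each WT late array was at least 1 log2 unit below each WT early array, and the log2 difference was -1.65 ± 0.18 (SE, n = 3 per group, limma adjusted p = 0.0014). Mest read 2.62, 3.49 and 4.05 in WT late arrays, against 5.22, 4.78 and 4.57 in WT early arrays, a difference of -1.47 ± 0.34 (adjusted p = 0.024). The Mest arrays did not overlap, and its slides gave -2.60, -1.29 and -0.53, a wide spread. Plagl1 read 3.55, 3.68 and 4.34 in WT late arrays, against 4.84, 4.67 and 5.31 in WT early arrays, a difference of -1.08 ± 0.25 (adjusted p = 0.023).

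Peg10, with a low signal that was still above background throughout, read -5.14, -4.98 and -5.75 in WT late arrays, against -4.11, -4.33 and -4.18 in WT early arrays. The groups did not overlap, and the log2 difference was -1.08 ± 0.24 (SE, n = 3 per group, limma adjusted p = 0.023). Its second probe gave -0.68 ± 0.19 (adjusted p = 0.048 over all probes). Of the 3 further Plagl1 probes, 2 gave -1.09 and -0.82 and were called, and 1 dim probe gave -0.16 (adjusted p = 0.45). All 3 Mest probes were called, between -1.60 and -1.47.

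The calls of Mest, Plagl1 and Peg10 were close to the threshold. In a fit of the WT arrays alone, only H19 stayed called, with limma adjusted p = 0.10 for Mest, 0.092 for Plagl1 and 0.059 for Peg10. Without WT early replicate 1 or 2, or WT late replicate 1 or 2, Mest was lost, with adjusted p between 0.052 and 0.055 over these 4 settings. Plagl1 was lost without WT early replicate 3 (adjusted p = 0.066) and without WT late replicate 1 or 2 (adjusted p = 0.074 and 0.070). Peg10 was lost without WT early replicate 3 (adjusted p = 0.058) or WT late replicate 3 (adjusted p = 0.057). Without the filter on dim signals all 3 lay between adjusted p = 0.055 and 0.056. Without the 4 arrays that carry Xist, H19 alone stayed called, with -0.91 for Mest (adjusted p = 0.18), -0.98 for Plagl1 (adjusted p = 0.17) and -1.11 for Peg10 (adjusted p = 0.16), and leaving out the 2 KO late arrays of these, which alters only the pooled spread here, gave adjusted p = 0.065, 0.060 and 0.064 for Mest, Plagl1 and Peg10.

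The other 6 members were not called in WT late against WT early. Meg3 was the one with a positive difference, at 3.65, 3.87 and 4.00 in WT late arrays, against 2.79, 2.90 and 3.63 in WT early arrays. Its groups did not overlap, by a narrow margin, and its log2 difference was 0.73 ± 0.34 (SE, n = 3 per group, limma adjusted p = 0.19). One of its dimmer probes was called, at 1.37 ± 0.35 (adjusted p = 0.037 over all probes). Dlk1 had a difference of -0.51 ± 0.43 (adjusted p = 0.47), Grb10 of -0.23 ± 0.22 (adjusted p = 0.53), and Peg3, Nnat and Ndn lay between -0.14 and -0.06. Fibroblast markers moved in the same comparison, with 14 of 15 differences negative and 5 called lower, and chondrocyte markers were called lower for 3 of 11. Of 12 macrophage markers, 11 had a positive difference, with a median of 0.94, and Lyz2 was called higher. Their part in the H19, Mest, Plagl1 and Peg10 differences was not tested.

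KO late against KO early arrays asked the same of the KO cultures. Meg3 was 3.98-fold and Peg3 2.56-fold higher in KO late arrays, and no member was called lower. Thus 2 of 10 members were called higher, where 9.95% of all genes were, and 0 lower, where 9.0% were, with 18.9% called in either direction. At an unadjusted p under 0.05 there were 3 members, where 33.8% of all genes passed. The groups did not overlap for 4 of 10 members, where this held for 51.9% of all genes. The median difference of the 10 was -0.10, against -0.05 over all genes.

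Meg3 read 4.82, 4.83 and 4.73 in KO late arrays, against 1.93, 2.96 and 3.50 in KO early arrays. The late values were tight and the early ones spread over more than 1.5 log2 units, with replicate 1 lowest. The log2 difference was 1.99 ± 0.34 (SE, n = 3 per group, limma adjusted p = 0.0046). The other 2 probes gave 1.92 and 2.33, both called, and the slides gave 2.88, 1.87 and 1.23.

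Peg3 read 2.75, 2.85 and 2.60 in KO late arrays, against 0.92, 1.43 and 1.78 in KO early arrays. All late values lay above all early ones, and the log2 difference was 1.36 ± 0.33 (SE, n = 3 per group, limma adjusted p = 0.018). The second probe gave 1.55 ± 0.33 (adjusted p = 0.011 over all probes). The call was lost with the Xist level as a covariate (difference 1.09, adjusted p = 0.062) and without KO early replicate 1 or 2 or KO late replicate 1 or 2, with adjusted p between 0.053 and 0.076. Without the 2 KO late arrays that carry Xist, neither gene was called, with 1.93 for Meg3 (adjusted p = 0.13) and 1.22 for Peg3 (adjusted p = 0.29), and without all 4 arrays that carry it the adjusted p was 0.15 for each.

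The members that were lower in WT late than in WT early arrays were not called between KO late and KO early. H19 differed by -0.46 ± 0.18 on the log2 scale (SE, 3 arrays per group, limma adjusted p = 0.11), with no overlap. It was called in a fit of the KO arrays alone (adjusted p = 0.039), without WT late replicate 1 (adjusted p = 0.045) and with the replicate number as a block (adjusted p = 0.04975), a number that was not taken to pair the KO arrays. Mest had -0.03 ± 0.34 (adjusted p = 0.96), Plagl1 -0.17 ± 0.25 (adjusted p = 0.67) and Peg10 -0.24 ± 0.24 (adjusted p = 0.53). However, 1 dim Plagl1 probe was called lower, at -0.53 ± 0.16 (adjusted p = 0.044 over all probes), while its further probes gave -0.16 and 0.18. The second Peg10 probe gave -0.60 ± 0.19 (adjusted p = 0.053 over all probes). Grb10 read 2.37, 2.33 and 2.46 in KO late arrays, against 3.14, 2.77 and 2.52 in KO early arrays, a difference of -0.42 ± 0.22 (adjusted p = 0.22). Dlk1, Ndn and Nnat had differences of 0.02, -0.18 and -0.003. Chondrocyte markers were called higher for 3 of 11 and fibroblast markers lower for 4 and higher for 1 of 15. Their part in the Meg3 and Peg3 differences was not tested.

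The difference between the passage differences, KO minus WT, was tested directly. None of the 10 members was called by limma, where 0.0871% of all genes were (0.0205% higher and 0.0666% lower), and 6 had an unadjusted p under 0.05, where 13.9% of all genes did. Peg3 had 1.49 ± 0.47 (adjusted p = 0.23), Mest 1.44 ± 0.48 (adjusted p = 0.26), Meg3 1.26 ± 0.49 (adjusted p = 0.30) and H19 1.19 ± 0.26 (adjusted p = 0.13), all on the log2 scale with n = 3 arrays per group. Plagl1 had 0.91 ± 0.35 (adjusted p = 0.30) and Peg10 0.84 ± 0.35 (adjusted p = 0.32). Their probes differed: the second Peg10 probe gave 0.085 ± 0.27 (adjusted p = 0.91 over all probes), and the further Plagl1 probes gave 0.93, 0.34 and 0.29. Of the 10 members, by the probe that stands for each, 8 had a positive difference, and Grb10 and Ndn a negative one. The median was 0.88, against -0.02 over all genes. A passage effect that passed in one genotype and not in the other is therefore not shown to differ between them. The H19 value was called with another background correction, normexp, at adjusted p = 0.049.

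**Figure D3:**
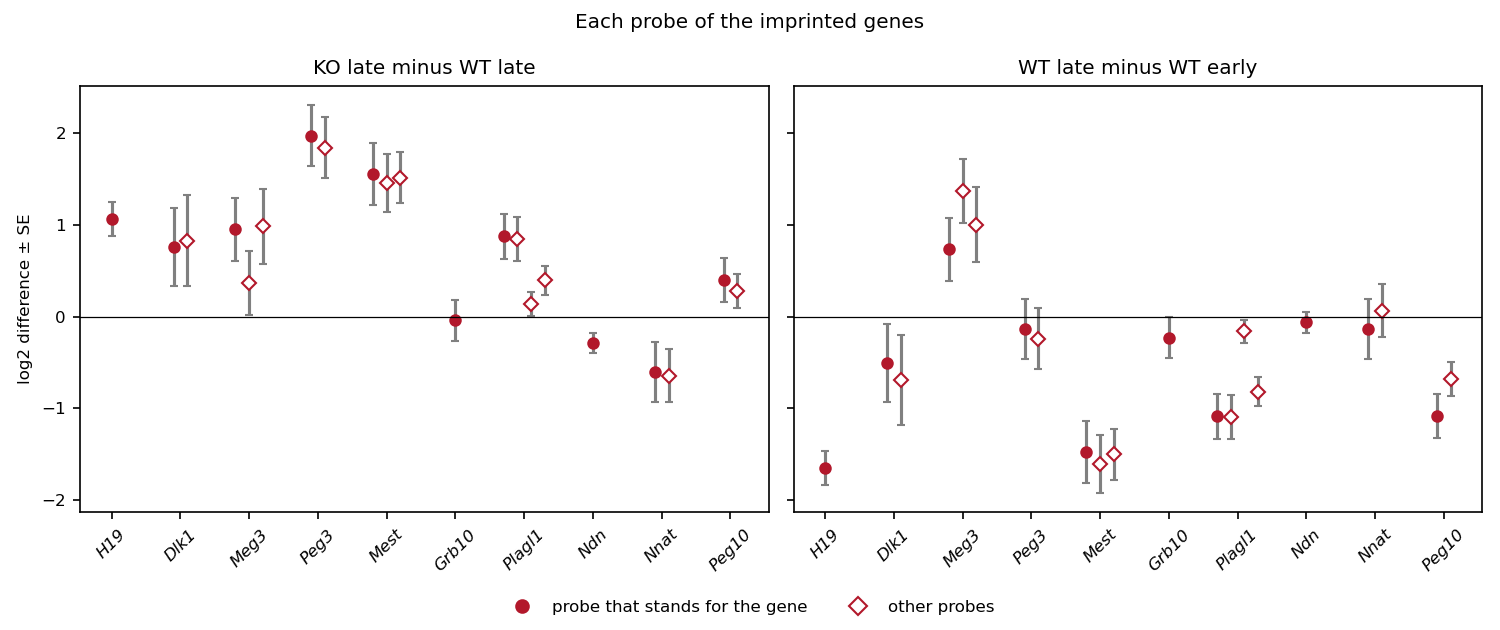
Log2 difference ± SE of each of the 21 probes, for KO late minus WT late (left) and WT late minus WT early (right), with n = 3 arrays per group, filled circles for the brightest probe, which stands for the gene, and open diamonds for the others. Probes of Mest, Peg3, Dlk1 and Nnat lie together in the left panel, while 1 dim Plagl1 probe stays near 0 in both.

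By parental origin, 2 of the 7 paternally expressed members (Peg3 and Mest) and 1 of the 3 maternally expressed members (H19) were called higher in KO late than in WT late arrays, where 3.46% of all genes were. The median log2 difference was 0.76 for the paternal and 0.95 for the maternal genes. In WT late against WT early arrays, 3 of 7 paternal members (Mest, Plagl1 and Peg10) and 1 of 3 maternal members (H19) were called lower, where 4.37% of all genes were, with medians of -0.51 and -0.23.

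Other imprinted genes were read from lists of 57 genes, of which 53 were on the array and 45 were tested. Of the tested genes, 21 were listed in the same imprinted region as a member and 24 in other regions. At late passage 2 of the 45 were called higher and 6 lower in KO than in WT, where 3.46% and 4.37% of all genes were, and their median log2 difference was -0.02. The 21 genes of the same regions gave 2 higher and 3 lower, with a median of 0.21. The 24 genes of other regions gave 0 higher and 3 lower, with a median of -0.12. The counts that follow are over all 45. At early passage 0 were called by limma, where 0.0359% of all genes were, and 0 had an unadjusted p under 0.05, where 5.99% did. In WT late against WT early arrays 2 were called higher and 3 lower, where 6.22% and 4.37% of all genes were. In KO late against KO early arrays 5 were called higher and 11 lower, where 9.95% and 9.0% of all genes were. In the test of the difference between the passage differences 0 were called by limma, where 0.0871% of all genes were, and 7 had an unadjusted p under 0.05, where 13.9% did.

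Zim1, a zinc finger gene next to Peg3 on chromosome 7 that is made from the maternal copy, moved with Peg3. It read 0.38, 0.73 and 0.03 in KO late arrays, against -2.26, -2.36 and -2.41 in WT late arrays, and -2.33, -1.30 and -0.83 in KO early arrays, against -1.12, -2.15 and -2.80 in WT early arrays. Within each of the 2 early groups it was highest and lowest on the same arrays as Peg3. Its log2 difference was 2.73 ± 0.44 between KO late and WT late arrays (SE, n = 3 per group, limma adjusted p = 0.0086) and 1.87 ± 0.44 between KO late and KO early arrays (adjusted p = 0.016). Of 14564 named genes compared over the 12 arrays, Zim1 had the highest Pearson correlation with Peg3, at 0.991. Usp29, which shares the region of the Peg3 start, had a difference of 1.74 ± 0.55 between KO late and WT late arrays (adjusted p = 0.079). It was above background on all 3 arrays of each KO group and on 1 of 3 arrays of each WT group. The filter on dim signals let Usp29 in only through the KO groups, so its difference rests on a group that admitted it.

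**Figure D4:**
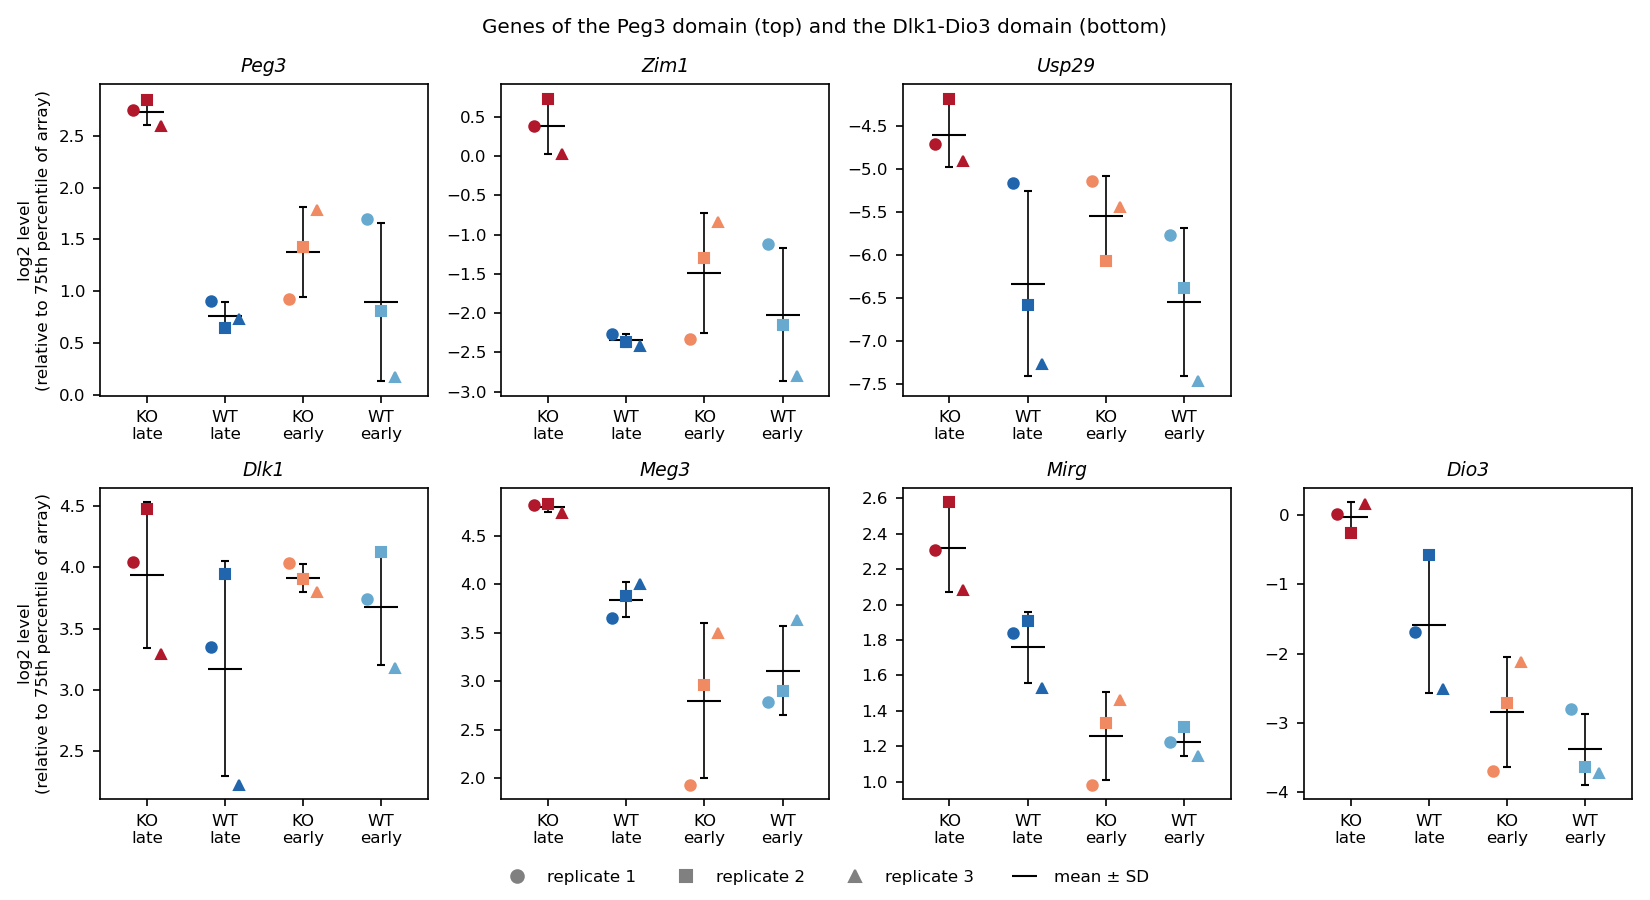
Log2 level relative to the array's 75th percentile on each array, with mean ± SD of 3 arrays, for Peg3, Zim1 and Usp29 (top) and for Dlk1, Meg3, Mirg and Dio3 (bottom). Peg3 and Zim1 both sit highest in the 3 KO late arrays, and Meg3, Mirg and Dio3 are highest in the KO late arrays, while the Dlk1 groups overlap.

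In the Dlk1 and Meg3 region of chromosome 12, Mirg and Dio3 were called with passage. Mirg, a non-coding RNA made from the maternal copy, read 2.31, 2.58 and 2.08 in KO late arrays, against 0.98, 1.33 and 1.46 in KO early arrays, a log2 difference of 1.06 ± 0.16 (limma adjusted p = 0.0027). Dio3, the enzyme that inactivates thyroid hormone, read 0.02, -0.26 and 0.17 in KO late arrays, against -3.70, -2.71 and -2.13 in KO early arrays, a difference of 2.82 ± 0.50 (adjusted p = 0.0052). Dio3 was also called in WT, at -1.69, -0.57 and -2.52 in WT late arrays, against -2.80, -3.64 and -3.73 in WT early arrays, a difference of 1.80 ± 0.50 (adjusted p = 0.048). Begain was 2.17-fold higher in KO late than in WT late arrays (log2 difference 1.12 ± 0.30, adjusted p = 0.048).

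The nearest measured imprinted neighbours of the remaining members are given by their differences. Copg2, next to Mest, had log2 differences of -0.04 ± 0.22 between KO late and WT late arrays and -0.02 ± 0.22 between WT late and WT early arrays (limma adjusted p = 0.93 and 0.97). Phactr2, near Plagl1, had 0.01 ± 0.15 and 0.11 ± 0.15 (adjusted p = 0.97 and 0.67), and Sgce, next to Peg10, had 0.40 ± 0.14 and -0.01 ± 0.14 (adjusted p = 0.10 and 0.98). Ddc, the enzyme that makes dopamine and lies next to Grb10, had -0.15 ± 0.39 between KO late and WT late arrays (adjusted p = 0.86). It was called lower in WT late than in WT early arrays, at -2.29 ± 0.39 (adjusted p = 0.0081), and in KO late than in KO early arrays, at -2.52 ± 0.39 (adjusted p = 0.0030), while Grb10 was called in neither. Magel2 beside Ndn had 0.45 ± 0.50 between KO late and WT late arrays (adjusted p = 0.63), and Blcap beside Nnat had -0.09 ± 0.09 (adjusted p = 0.61). Ascl2, the measured listed gene nearest to H19, had -0.72 ± 0.32 between KO late and WT late arrays and 0.20 ± 0.32 between WT late and WT early arrays (adjusted p = 0.20 and 0.72).

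Further imprinted genes were called lower in KO late than in WT late arrays. Gatm, an enzyme of creatine synthesis, had a log2 difference of -1.51 ± 0.36 (limma adjusted p = 0.031). It was also called lower in KO late than in KO early arrays, at -1.65 ± 0.36 (adjusted p = 0.011). The other 5, Herc3, Pon2, Snrpn, Asb4 and Tssc4, had KO late minus WT late differences between -0.62 and -0.32. Pon2 was also called higher in WT late than in WT early arrays, at 0.38 ± 0.09 (adjusted p = 0.024). It averaged -1.32 in KO late and -1.24 in KO early arrays. With passage, Slc38a4, an amino acid transporter, was lower in both genotypes, at -1.25 ± 0.28 in KO (adjusted p = 0.014) and -1.36 ± 0.28 in WT (adjusted p = 0.017). Klf14, in the Mest region, was at least 1.53-fold lower in KO late than in KO early arrays. In WT late arrays it was at least 1.83-fold lower than in WT early arrays. It was above background on none of the 6 late arrays, on 2 of 3 KO early arrays and on 3 of 3 WT early arrays. The filter on dim signals let it in only through WT early, so its WT difference rests on the group that admitted it. Zdbf2 was at least 3.55-fold lower in KO late than in KO early arrays. It was above background on 0 KO late arrays and 1 WT late array, and passed the filter only through the early groups. In WT it averaged -6.92 in late and -4.94 in early arrays and was not called.

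The genes whose pattern over the 12 arrays was most like that of a member were looked up for the 6 members whose group means spanned more than 1 log2 unit. These correlations are descriptions, since the arrays share the group differences. H19 was most like Olfml3 (Pearson r = 0.976) and Emid1 (0.974), Mest was most like Aspn (0.972) and Ecrg4 (0.969), and Plagl1 was most like Col12a1 (0.980) and Serpinf1 (0.972). After Zim1, Peg3 was most like Ecm2 (0.969). Meg3 was most like Ccnl2 (0.980) and Ypel3 (0.978), and Peg10 was most like Jmjd8 (0.934) and Stk35 (0.926).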

How the data were processed

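Mouse embryonic fibroblast RNA was measured on 12 Agilent arrays with 1 dye (Cy3), from 100 ng of total RNA each, per the labels' protocols. The deposited scanner files give each spot's intensity from which Agilent Feature Extraction had taken the background and spatial trends, arrays not being normalized to each other, per the file headers, which name version 11.5.1.1; the submitters' processing notes name 10.7.3.1. The authors' deposited value table holds log2 values, which from their values were scaled to the 75th percentile and centred per probe; it was used as an alternative. Other columns used are the deposited 0 or 1 spot calls of the scanner software.

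Spots called outliers were left out (100 to 212 per array), repeated spots averaged, and log2 intensity was set against the 75th percentile of the array's spots. Probes stayed in if some group had all its 3 arrays well above background, giving 24359 probes and, with the brightest probe standing for a gene, 19507 genes. Symbols came from RefSeq, with 27969 of 28290 RefSeq accessions matched. For a gene below background throughout a group, the fold is a bound against the lowest signal called above background. Group means of all 12 arrays were fitted with limma 3.58.1 in R 4.3.3 (8 residual degrees of freedom) and 5 contrasts were adjusted with the Benjamini-Hochberg method over all genes. The fit was tested on simulated data. The p-values measure the spread between 3 arrays per group, whose number limits the precision. With 3 arrays against 3, no single gene could pass an exact permutation test.

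The text names all members, other listed imprinted genes that were called (up to 8 per contrast, by size), the nearest measured imprinted neighbour of each member, and the 2 most alike genes of members whose group means span over 1. Usp29 was added after its values were seen. The members and lists were chosen with earlier results of these data known.

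The slide equals the replicate number. Deviations of same-numbered arrays correlated at 0.28, 0.24 and 0.14 for WT late and WT early. In the other comparisons they correlated at -0.09 to 0.16, highest for KO early and WT early replicate 3. Only for the WT arrays were all 3 above 0.1, so the numbers were taken to pair only these. Alternatives were normexp (on the median signals, since the files hold no mean signal, with spots more than 20 below the local background left out), quantile normalization, the filter, the mean over probes, the replicate block, fits of 2 groups, leaving out each array, Xist as a covariate and the authors' values. Leaving out the arrays with Xist was added after seeing the data, in 2 forms. Markers of muscle, endothelial, epithelial, neural and fat cells were also listed: in KO late against WT late arrays 2 of 6 muscle, 1 of 5 epithelial and 2 of 5 neural markers were called lower, 1 of 4 fat markers higher and 1 lower, and 0 of 3 endothelial markers by limma (0 at an unadjusted p under 0.05).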

Additional observations from a re-analysis of the deposited data

How the results depend on the processing

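Of 50 member results (10 genes in 5 comparisons), 9 were called, and none of these 9 reversed under any alternative. H19 in WT late against WT early stayed called under all 23 alternatives, and Peg3 in KO late against WT late and Meg3 in KO late against KO early under 21 of 23, lost in both fits without arrays that carry Xist. In 4 results a member not called was called elsewhere.

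The replicate block, which pairs WT late with WT early arrays, changed no member call there, and left 4 calls over all genes in KO early against WT early and 4 in the passage-by-genotype difference. For that early comparison the count over all genes, 7 in the values reported, was 3 with normexp, 3 without the filter, 4 with the stricter filter, 1 in the fit of 2 groups and 4 with the authors' values. For the passage-by-genotype difference, 17 as reported, it was 43 with normexp (1 member), 3 without the filter, 8 with the stricter filter and 9 with the authors' values. Without the filter, 615 genes and 3 other imprinted genes were called in KO late against WT late, 1003 genes, 1 member and 3 other imprinted genes in WT late against WT early, and 2320 genes in KO late against KO early. Fitting the WT arrays alone left 560 genes, 1 member and 1 other imprinted gene. With the Xist covariate, 1 member was called in KO late against KO early.

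Without the 2 KO late arrays with Xist, the calls over all genes, other imprinted genes and members were 1, 0 and 0 in KO late against WT late, 849, 3 and 1 in WT, 165, 0 and 0 in KO, 1 over all genes at early passage and 0 for the passage-by-genotype difference. Without all 4 such arrays they were 410, 1 and 0 in KO late against WT late, 707, 3 and 1 in WT, 441, 4 and 0 in KO, 2 at early passage and 224 for the passage-by-genotype difference. Fewer arrays enter these fits by construction.

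Leaving out 1 array at a time gave 1 to 5 members, 2 to 8 other imprinted genes and 255 to 2353 genes in KO late against WT late. It gave 2 to 4, 3 to 10 and 1166 to 2459 in WT late against WT early, 1 to 3, 9 to 17 and 1780 to 4742 in KO late against KO early, 2 to 5 genes at early passage and 1 to 230 for the passage-by-genotype difference. The members fell to 1 of 10 in KO late against WT late without KO late replicate 1 or 2, where Peg3 stayed.

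Differences of members that were not called turned sign, and the cause was not tested. In KO late against KO early, Mest was 0.017 with normexp, 0.12 with quantile normalization, 0.025 as the mean over probes and 0.13 with the Xist covariate, Nnat was 0.066 as the mean over probes and 0.011 with the authors' values, and Dlk1 was -0.29 with the covariate and -0.62 in both fits without Xist arrays. In KO early against WT early, Mest was -0.041 as the mean over probes. Grb10 in KO late against WT late was 0.035 without the 2 and 0.12 without the 4 Xist arrays, and Peg3 in WT late against WT early 0.19 without the 4. For the passage-by-genotype difference Dlk1, 0.53 as reported, was -0.11 and -0.054, and Nnat -0.53 and -0.43, in these fits, and Nnat was -0.10 with the covariate. Leaving out 1 array turned sign in ranges of -0.019 to 0.46 for Dlk1, -0.66 to 0.13 for Meg3, -0.089 to 0.37 for Mest, -0.079 to 0.30 for Grb10 and -0.18 to 0.15 for Plagl1 at early passage. It did so for Grb10 in KO late against WT late (-0.22 to 0.051), for Peg3 (-0.50 to 0.27) and Nnat (-0.43 to 0.18) in WT, for Dlk1 (-0.25 to 0.34), Mest (-0.28 to 0.18) and Nnat (-0.25 to 0.33) in KO, and for Grb10 (-0.37 to 0.040), Ndn (-0.21 to 0.0029) and Nnat (-0.19 to 0.46) in the passage-by-genotype difference.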
